A study of Homo sapiens with 6 samples.

Results

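The 55 genes described here are the WNT ligands, their receptors and the main regulators of the WNT pathway. They were taken by symbol from a table of 20289 genes: every WNT ligand gene (19), every Frizzled gene (10), DKK1 to DKK4, the SFRP genes (4 in the table) and 18 named co-receptors, regulators and transcription factors. The study sequenced RNA from 6 libraries whose labels name T24, an established human bladder cancer cell line, grown in a standard medium with serum. The libraries were labelled as cells given plasmids by lipofection: Vector plasmids in 3 libraries, the control, and pcDNA3.1 plasmids that overexpress LINC00665, a long non-coding RNA, in the other 3. The series' design text names 3 independent experiments and the sample titles give only replicate numbers. By the labels, a single line stands for bladder cancer in this design.

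WNT proteins are secreted, lipid-modified ligands that bind a Frizzled receptor on the cell surface. Together with the co-receptors LRP5 and LRP6 they act through Dishevelled to keep beta-catenin from being degraded, so that it can work with TCF and LEF factors on target genes. Other WNT proteins act without beta-catenin, partly through ROR1 and ROR2, on cell shape and movement. In the bladder, WNT signals pass between stroma and basal urothelium during repair, and in the embryonic kidney WNT9B and WNT4 drive tubule formation.

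Cell line identity was checked first: 3 of the 6 libraries failed to match the labelled line. Groups are named by their labels throughout, as Vector libraries and LINC00665 libraries. Genes said to rise, fall or change are those that differ in the LINC00665 libraries from the Vector libraries, whatever the cells in them. Totals ran from 17289788 to 22725687 expected counts per library. Of 23 urothelial and epithelial markers, 15 had a mean under 1 CPM (read counts scaled to library size) in the Vector libraries and 3 in the LINC00665 libraries. The marker sum was 1050 to 3210 CPM and 11265 to 13717 CPM, respectively. UPK3A, GRHL3, KRT13, KRT14 and KRT20 had 0 counts in the former and KRT20 in the latter. Of 17 kidney tubule markers, 5 of the 7 tested were lower in the LINC00665 libraries and 1 was higher, with sums of 384 to 563 CPM under the Vector label and 56.0 to 58.6 CPM under the other. UMOD and SLC12A1 had 0 counts in both groups, EMX2 and CDH6 also in the Vector libraries, and CDH16 also in the LINC00665 libraries. Summed fibroblast markers stood at 151 to 169 and 524 to 574 CPM, endothelial markers at 5.64 to 7.92 and 15.2 to 16.3 CPM, and leukocyte markers at 0.28 to 0.833 and 5.63 to 6.94 CPM. Of the 10 leukocyte markers, the 2 tested were higher in the LINC00665 libraries, with CD14 at a mean of 5.18 CPM there; PTPRC had a mean of 0.0185 CPM in the Vector libraries and 0 counts in the others. The part of these differences in the results below was not tested. Plasmid and cell identity cannot be told apart between the groups, and in bulk RNA neither can fewer cells of a type and less RNA per cell.

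Most WNT pathway genes that could be tested differed between the labels. The ligands WNT7A, WNT7B, WNT5A and WNT4, the co-receptor ROR2, the antagonists SFRP1 and DKK1 and the ubiquitin ligase RNF43 were among those higher in the LINC00665 libraries. FZD8, FZD6, WNT2B, WNT5B, ROR1 and DKK3 were among those lower. Of the 55 genes, 42 passed the filter on low counts. With a Benjamini-Hochberg adjusted p of 0.05 in edgeR's quasi-likelihood test, 28 were higher and 10 were lower in the LINC00665 libraries and 4 did not pass. That is 90.5% of those tested, against 63.5% of all 13552 tested genes (34.2% higher and 29.3% lower). The groups did not overlap in CPM for 39 of the 42, against 70.2% of all tested genes. The median fitted log2 fold change, LINC00665 minus Vector, was 1.48 over the 42 genes and 0.03 over all tested genes.

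The filter bears on this count, on the number without overlap and on the median fold change. Of the 42 genes, 13 had a mean below the filter's level of 0.511 CPM in the Vector libraries, and none in the LINC00665 libraries alone. The direction of those 13 is therefore tied to their having passed. They were WNT4, WNT5A, WNT7A, WNT10A, WNT11, WNT16, FZD9, ROR2, SFRP1, SFRP5, RNF43, APCDD1 and NKD2. Their fold changes all lie above the members' median of 1.48 and raise it, so that median is tied to the filter as well. Of all 13552 tested genes, 1439 lay below that level in the Vector libraries alone, a smaller share than among the members. In the LINC00665 libraries alone 334 did. At 5 CPM or more in both groups there were 20 members, of which 10 rose, 9 fell and 1 did not pass, a split that was nearly even. Over all 9662 genes at that level, 57.2% passed, 24.8% higher and 32.4% lower. Fitted only on genes with a mean of 1 CPM in both groups, 27 members were tested and 24 passed, 14 higher and 10 lower, against 57.4% of all genes in that fit. Libraries of the Vector label varied more among themselves: over these 20 members the median coefficient of variation was 19.9% in the Vector and 10.8% in the LINC00665 libraries.

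**Figure D1:**
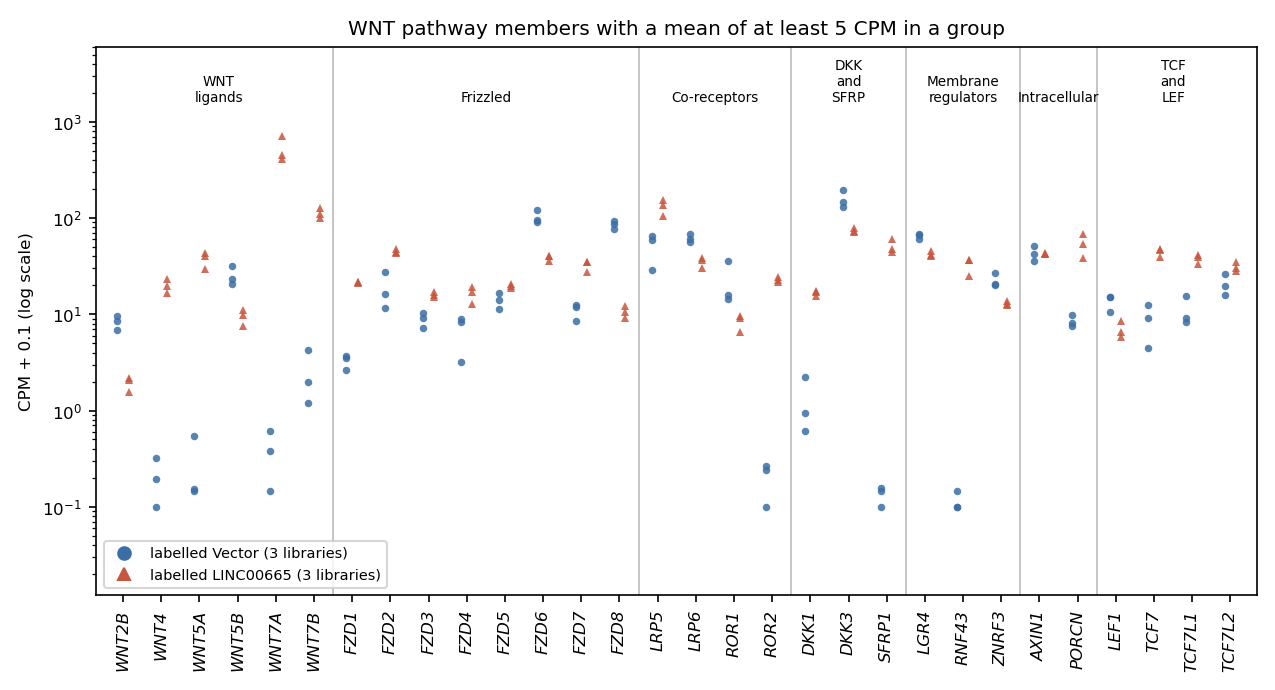
CPM of each library, with 0.1 added, on a log axis for the 30 members with a mean of at least 5 CPM in a group that passed the test, or in both groups where they did not (AXIN1). Circles are the 3 Vector libraries and triangles the 3 LINC00665 libraries, and the groups overlap for AXIN1 among these genes.

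The sequences before the transcription starts of 4 genes are shown as examples of a ligand, an antagonist, a membrane regulator and a receptor, and of both directions: WNT7A, DKK1 and RNF43 rose and FZD8 fell. Each is the stretch of 250 bases upstream of a start in RefSeq (GRCh38.p14), read 5′ to 3′ on the gene's own strand. For RNF43 it is the first of 2 listed starts. Capitals mark CTTTGAA or CTTTGAT (forms of the motif that TCF and LEF proteins bind), TATAAA (the TATA box) and GGGCGG (the GC box), each searched on both strands.
WNT7A, chr3:13880072-13880321, minus strand: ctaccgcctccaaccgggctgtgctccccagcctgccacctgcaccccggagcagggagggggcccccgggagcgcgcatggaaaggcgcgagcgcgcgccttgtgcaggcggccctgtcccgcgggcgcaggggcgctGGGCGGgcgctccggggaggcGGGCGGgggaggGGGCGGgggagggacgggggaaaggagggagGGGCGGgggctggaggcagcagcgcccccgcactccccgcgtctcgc
DKK1, chr10:52314031-52314280, plus strand: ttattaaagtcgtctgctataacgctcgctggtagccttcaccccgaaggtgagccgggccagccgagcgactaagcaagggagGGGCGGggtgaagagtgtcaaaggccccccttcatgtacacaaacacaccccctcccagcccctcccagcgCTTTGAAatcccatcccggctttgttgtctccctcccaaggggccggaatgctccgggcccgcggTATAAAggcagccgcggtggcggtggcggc
RNF43, chr17:58417535-58417784, minus strand: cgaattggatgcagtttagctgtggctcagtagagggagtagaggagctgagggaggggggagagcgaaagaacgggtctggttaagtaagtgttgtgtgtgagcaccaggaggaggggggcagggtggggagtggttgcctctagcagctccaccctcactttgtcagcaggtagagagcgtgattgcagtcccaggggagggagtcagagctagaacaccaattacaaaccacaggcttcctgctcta
FZD8, chr10:35642297-35642546, minus strand: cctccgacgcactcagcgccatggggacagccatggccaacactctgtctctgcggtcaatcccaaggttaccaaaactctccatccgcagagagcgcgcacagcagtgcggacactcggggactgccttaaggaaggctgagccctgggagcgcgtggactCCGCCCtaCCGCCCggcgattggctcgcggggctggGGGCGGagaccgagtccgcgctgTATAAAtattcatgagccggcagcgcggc

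DKK1, a textbook target of beta-catenin, had CTTTGAA with its first base 95 bases before the start, and a TATAAA that began 30 bases before it. It was the only one of 46 starts, from the 38 members found in the RefSeq table, that held CTTTGAA in this window, and 0 held CTTTGAT. Over all 35116 promoter windows of the same length the shares were 3.8% and 2.26%. WNT7A had 4 GC boxes and no TATAAA, FZD8 had 3 GC boxes and a TATAAA that began 29 bases before the start, and RNF43 had none of the motifs. GGGCGG was present at 33 of the 46 starts and in 42.6% of all windows, and TATAAA at 4 of 46 and in 10.7%. CG dinucleotides numbered 29 before WNT7A, 24 before FZD8, 18 before DKK1 and 4 before RNF43, with a median of 22.5 over the 46 starts and 11 over all windows. A match describes these letters only, and windows of 1 gene or of neighbouring genes can overlap.

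Among the ligands, WNT7A was at trace levels under the Vector label and highly expressed under the LINC00665 label. WNT7A, known from limb and female reproductive tract development, is encoded on the minus strand of chromosome 3, from 13816258 to 13880121 (GRCh38). Its level was 0.0466, 0.278 and 0.517 CPM in Vector libraries 1 to 3 and 450, 720 and 407 CPM in LINC00665 libraries 1 to 3. All LINC00665 libraries were far above all Vector libraries, which together held 16 counts of the gene. The log2 fold change was 10.87 (SE 0.54, edgeR adjusted p = 1.2e-06), a pooled ratio of 1924. With so few Vector counts the size is loose: without Vector library 3 the log2 fold change was 11.69. In FPKM, in which the authors also corrected for gene length, WNT7A stood above 96.1 to 97.6% of the table's genes in the LINC00665 libraries.

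WNT7B, its closest relative, which acts in lung and in the kidney's collecting ducts, was at 1.86, 4.16 and 1.09 CPM in the Vector and at 127, 101 and 111 CPM in the LINC00665 libraries. The groups were well apart, and differed by 5.58 on the log2 scale (SE 0.43, edgeR adjusted p = 1.4e-05), or by 6.24 without Vector library 2. WNT5A, the best studied ligand of beta-catenin-independent signalling and a ligand of ROR2, was at 0.0466, 0.444 and 0.0517 CPM under the Vector label. In the LINC00665 libraries it reached 43.4, 29.5 and 40.0 CPM. This was a rise of 7.73 on the log2 scale (SE 0.51, edgeR adjusted p = 5.7e-06), from 10 counts in all under the Vector label, and of 9.41 without Vector library 2. WNT4, a ligand of kidney and female genital tract development, was at 0.0932, 0.222 and 0 CPM and at 23.3, 19.8 and 16.4 CPM, which is 7.51 on the log2 scale (SE 0.49, edgeR adjusted p = 5e-06). It too rose from very few reads, 6 in all, and without Vector library 2 the log2 value was 8.49.

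The ligands that fell were WNT5B and WNT2B. WNT5B, the paralogue of WNT5A, was at 20.4, 23.3 and 31.9 CPM in the Vector libraries and at 7.4, 11.1 and 9.69 CPM in the LINC00665 libraries. Every LINC00665 library was below every Vector library, the fitted log2 difference being -1.42 (SE 0.24, edgeR adjusted p = 0.00092). WNT2B, a ligand of mesenchyme and gut, was at 8.34, 6.72 and 9.47 CPM and at 2, 1.47 and 2.1 CPM (log2 fold change -2.13, SE 0.25, edgeR adjusted p = 0.00015). Its exons overlap those of ST7L on the other strand and its counts were partly fractional, so reads of the pair cannot be told apart with certainty.

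The other 13 ligand genes were low or absent. WNT10A rose, at 3.34 to 5.83 CPM in the LINC00665 libraries and 0 counts in the Vector libraries, at least 93.5-fold higher with the Vector group set at 3 counts. WNT16 went from 3 counts in all to 130, a pooled CPM ratio of 43.1 (95% counting interval 14.4 to 212), and its fitted log2 fold change went from 5.28 to 8.42 without Vector library 1. WNT11 (0.282 and 1.17 CPM) and WNT9A (1.55 and 3.03 CPM) also rose. WNT9A no longer passed without any 1 of 4 libraries (Vector 1 and 2, LINC00665 1 and 3; edgeR adjusted p = 0.065 to 0.14), with total-count scaling (0.069) or on the FPKM scales (limma adjusted p = 0.057 and 0.063). WNT3, a ligand that acts through beta-catenin, was at 3.68, 3.55 and 4.81 CPM and at 4.79, 5.36 and 6.89 CPM and did not pass (log2 fold change 0.50, SE 0.24, edgeR adjusted p = 0.11). WNT10B did not pass either, at 0.962 and 1.03 CPM. Not tested were WNT1, WNT2, WNT3A, WNT6, WNT8A, WNT8B and WNT9B, of which WNT1 drew the most reads, with 26 counts over the LINC00665 libraries and 0 over the Vector libraries. WNT8A had 0 counts in all 6 libraries, which allows up to 3 counts per group. Of the 19 ligands, 8 rose, 2 fell, 2 did not pass and 7 were not tested. Those that passed were 83.3% of the tested ligands, against 63.5% of all tested genes. Of the 12 tested, 6 lay below the filter's level in the Vector libraries.

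Several of these genes sit side by side in the genome, and 1 gene of each pair was at or near 0. WNT6 and WNT10A are 6129 bases apart on chromosome 2, and WNT6 had 1 and 4 counts where WNT10A had 0 and 282. WNT10B and WNT1 are 6689 bases apart on chromosome 12, with means of 0.962 and 1.03 CPM for WNT10B and 0 and 0.441 CPM for WNT1. WNT3 and WNT9B adjoin on chromosome 17, where WNT9B had 1 and 0 counts beside 236 and 333 for WNT3. WNT9A and WNT3A, on chromosome 1, are 59152 bases apart, and WNT3A had 0 and 5 counts beside 92 and 181 for WNT9A.

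Per length, the ligands added up to 14.9, 18.4 and 22.0 FPKM in the Vector libraries and to 165, 217 and 155 FPKM in the LINC00665 libraries. The sum was thus 9.71-fold higher under the LINC00665 label, with no overlap between groups; the two-sided exact permutation test gave p = 0.1, the smallest that 3 against 3 libraries allow. WNT5B made up 74.1 ± 3.07% (SD, n = 3) of the ligand FPKM in the Vector libraries and 3.14 ± 0.395% in the LINC00665 libraries. WNT7A made up 0.361 ± 0.285% and 68.3 ± 6.94%, and WNT7B 3.58 ± 2.34% and 15.9 ± 4.32%. Without WNT7A the remaining 18 ligands still summed to 14.9, 18.3 and 21.9 FPKM against 58.7, 51.4 and 55.6 FPKM, a 3.01-fold difference.

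PORCN, the acyltransferase that attaches the lipid WNT proteins need for secretion and receptor binding, was at 9.79, 8.05 and 7.5 CPM in the Vector libraries and at 54.3, 67.5 and 38.6 CPM in the LINC00665 libraries. The lowest LINC00665 library was well above the highest Vector library, and the log2 fold change was 2.66 (SE 0.24, edgeR adjusted p = 3.1e-05). WLS, the carrier that takes WNT proteins to the cell surface and not one of the 55 genes, rose with it from 46.0 ± 8.35 to 141 ± 8.89 CPM (SD, n = 3; log2 fold change 1.61, SE 0.17, edgeR adjusted p = 8e-05).

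**Figure D2:**
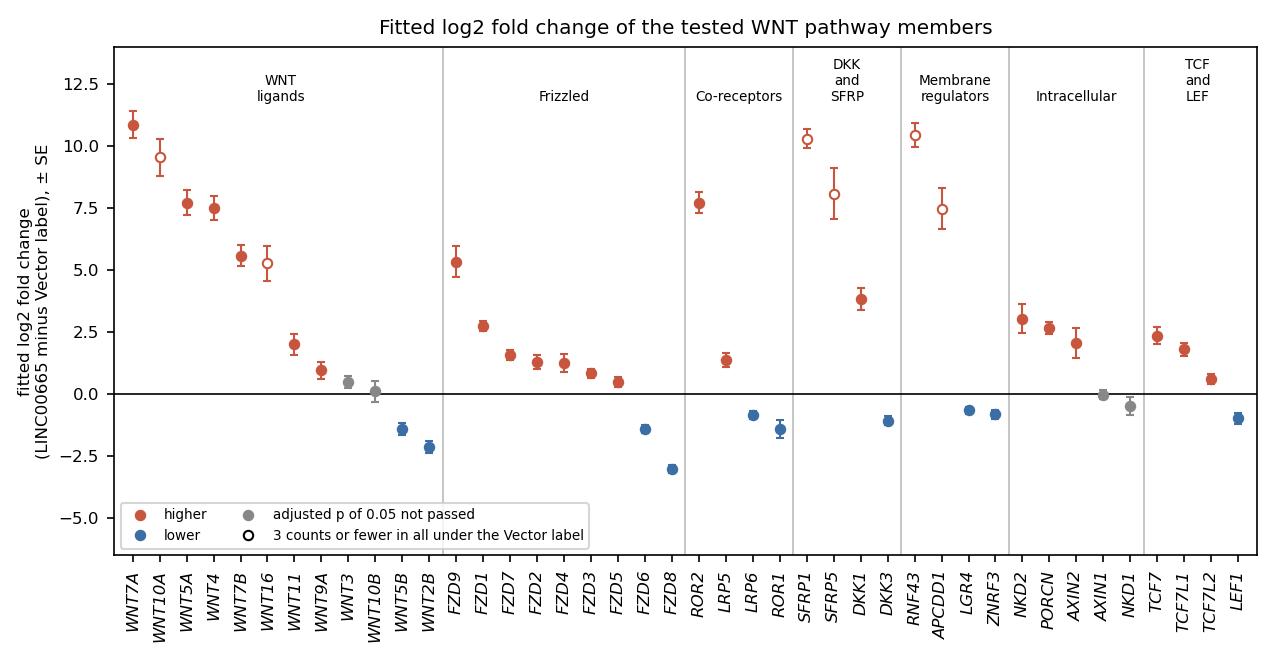
Fitted log2 fold change of the 42 tested members, LINC00665 minus Vector label, with its standard error, grouped by role. Open circles are genes with 3 counts or fewer in all Vector libraries, whose fitted size depends on the prior count; 28 genes were higher, 10 lower and 4, in grey, did not pass the adjusted p of 0.05.

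Of the 10 Frizzled receptors, 9 were tested, 7 rose and 2 fell. Of all tested genes 34.2% were higher and 29.3% lower. FZD9 lay below the filter's level in the Vector libraries, so its direction is tied to its having passed. The call of FZD5 was lost in 10 alternative fits. The 2 receptors that fell were those that dominated in the Vector libraries. FZD8, a receptor with a cysteine-rich WNT-binding domain like all Frizzleds, was at 76.9, 92.7 and 86.4 CPM in the Vector libraries and at 9.16, 10.4 and 12.2 CPM in the LINC00665 libraries. No library of either label came near the other group, and the log2 fold change was -3.01 (SE 0.17, edgeR adjusted p = 2.5e-06). The gene has its place on chromosome 10 at 35638249 to 35642278, on the minus strand. FZD6, which acts in planar cell polarity, was at 91.9, 120 and 95.1 CPM and fell to 40.3, 35.8 and 39.9 CPM (log2 fold change -1.40, SE 0.16, edgeR adjusted p = 1e-04). BAALC-AS1 overlaps its exons on the other strand.

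FZD1 rose from 2.52, 3.61 and 3.42 CPM to 21.4, 21.2 and 21.7 CPM, the largest change among Frizzled genes at 1 CPM or more in both groups that rose (log2 fold change 2.75, SE 0.20, edgeR adjusted p = 9.3e-06). FZD7, a receptor linked to stem cells of several epithelia, was at 11.9, 8.39 and 12.3 CPM and at 34.9, 34.6 and 27.5 CPM (log2 fold change 1.57, SE 0.20, edgeR adjusted p = 0.00023). FZD2, a receptor for WNT5A, was at 16.2, 27.4 and 11.6 CPM and at 44.7, 47.1 and 43.2 CPM (1.29, SE 0.29, edgeR adjusted p = 0.0045). In all 3 genes the LINC00665 libraries were above the Vector libraries, and Vector library 2 was the highest of its group for FZD1 and FZD2.

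Smaller differences were found for FZD3, FZD4 and FZD5. FZD3, a receptor of axon guidance, was at 7.13, 10.2 and 9.11 CPM and at 15.6, 16.8 and 15 CPM (log2 fold change 0.84, SE 0.19, edgeR adjusted p = 0.005). FZD4, the receptor of norrin in retinal vessels, was at 8.9, 3.11 and 8.28 CPM and at 19.1, 16.8 and 12.8 CPM (1.26, SE 0.37, edgeR adjusted p = 0.017). FZD4 overlaps PRSS23 on the opposite strand, and it no longer passed without LINC00665 library 1 (edgeR adjusted p = 0.057) or without LINC00665 library 2 (0.063). FZD5, a receptor of gut and eye, was at 14.1, 11.2 and 16.5 CPM and at 20.8, 19.4 and 18.8 CPM, with a small rise of 0.50 on the log2 scale (SE 0.19, edgeR adjusted p = 0.042). Its call was lost without any 1 of 5 libraries, all but Vector library 3 (edgeR adjusted p = 0.072 to 0.14), with total-count scaling (0.15), with the replicate number as a block (0.07), with no filter and on both FPKM scales (0.16 and 0.2). FZD9 rose from 4 counts in all to 179 (log2 fold change 5.34, or 6.62 without Vector library 2), and FZD10, not tested, had 12 counts in the Vector and 0 in the LINC00665 libraries.

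Summed per length, Frizzled transcripts were lower in the LINC00665 libraries although most of the genes rose. The sums were 62.0, 72.9 and 64.8 FPKM in the Vector libraries and 45.9, 43.1 and 41.9 FPKM in the LINC00665 libraries, a ratio of 0.655 (two-sided exact permutation p = 0.1, the smallest possible). FZD6 and FZD8 made up 47.0 ± 1.85% and 33.4 ± 1.23% (SD, n = 3) of the sum in the Vector libraries. In the LINC00665 libraries their shares were 23.2 ± 2.4% and 5.7 ± 1.17%, while FZD2 held 25.8 ± 1.23% and FZD7 15.2 ± 1.14%. The receptors were therefore spread over more genes under the LINC00665 label.

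**Figure D3:**
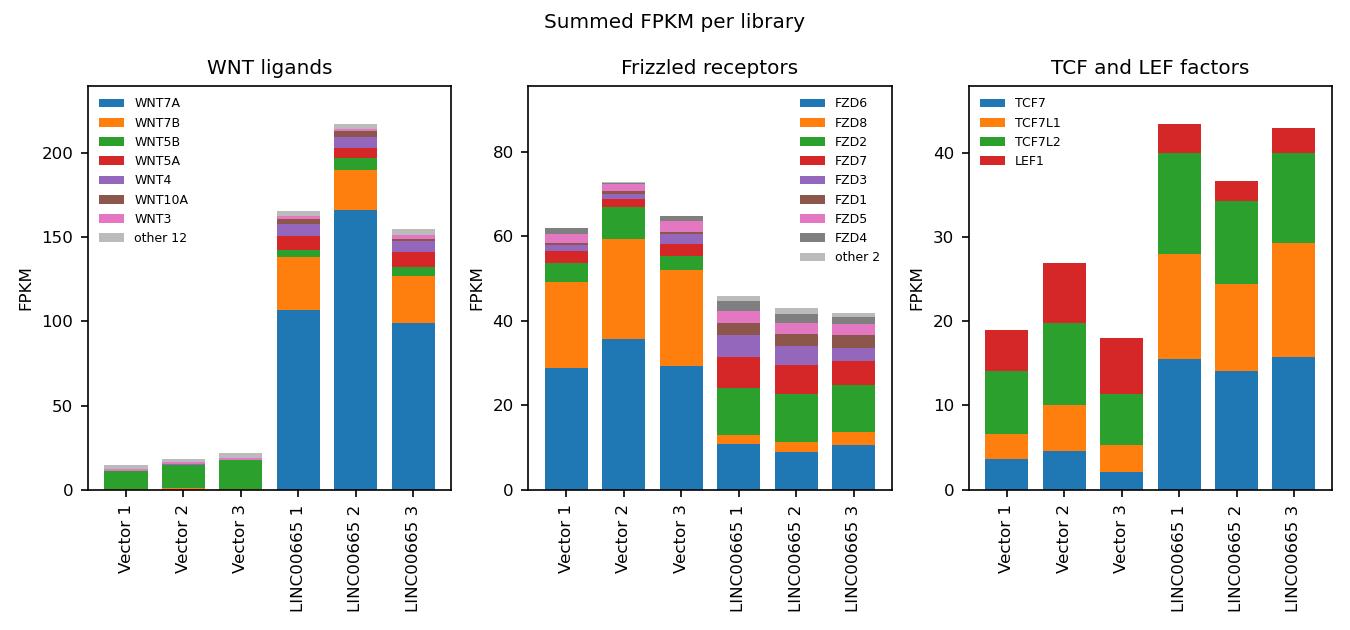
Summed FPKM of the ligands, Frizzled receptors and TCF and LEF factors in each library, stacked by gene, with axes from 0. WNT5B dominates the ligands in the Vector libraries and WNT7A in the LINC00665 libraries, and FZD6 and FZD8 make up most of the Frizzled sum only under the Vector label.

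The co-receptors changed in opposite directions within each pair. LRP5 was at 65.5, 58.5 and 28.9 CPM in the Vector libraries and at 155, 105 and 138 CPM in the LINC00665 libraries (log2 fold change 1.38, SE 0.30, edgeR adjusted p = 0.0041). LRP6 was at 67.9, 60.4 and 55.7 CPM and at 38.0, 30.3 and 36.2 CPM (-0.82, SE 0.16, edgeR adjusted p = 0.002). The groups did not overlap for either gene, and Vector library 3 was lowest for both. Per length, LRP5 was 0.835 to 1.67 times LRP6 in the Vector libraries and 5.24 to 6.51 times LRP6 in the LINC00665 libraries.

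ROR2, the receptor tyrosine kinase-like partner of WNT5A, was at 0.14, 0.167 and 0 CPM in the Vector libraries and at 24.4, 22.6 and 21.7 CPM in the LINC00665 libraries. From 6 counts in all it rose by 7.72 on the log2 scale (SE 0.43, edgeR adjusted p = 2.1e-06). ROR1, its relative, an embryonic receptor found again in several cancers, was at 14.3, 35.9 and 15.8 CPM and at 9.49, 6.46 and 9.1 CPM. Vector library 2 stood apart for ROR1, but all Vector libraries were above the LINC00665 libraries (log2 fold change -1.39, SE 0.37, edgeR adjusted p = 0.01). Thus WNT5A and ROR2 were at trace levels under the Vector label, where WNT5B and ROR1 were the expressed genes of these pairs.

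Among secreted antagonists, SFRP1 and DKK1 rose and DKK3 fell. SFRP1, which binds WNT proteins outside the cell, was at 0.0466, 0.0555 and 0 CPM in the Vector libraries and at 48.0, 44.5 and 60.8 CPM in the LINC00665 libraries. The 2 counts in all under the Vector label put the pooled ratio at 1496 (95% counting interval 414 to 12357), with an edgeR adjusted p of 3.2e-07. DKK1, which blocks LRP5 and LRP6 and whose promoter is printed above, was at 0.513, 0.833 and 2.12 CPM and at 17.1, 15.5 and 17.4 CPM (log2 fold change 3.85, SE 0.44, edgeR adjusted p = 0.00011; 4.64 without Vector library 3). DKK3, a divergent member of the Dickkopf family, was at 196, 146 and 131 CPM and at 79.6, 74.0 and 71.4 CPM (-1.07, SE 0.18, edgeR adjusted p = 0.00092). The highest LINC00665 library was below the lowest Vector library for DKK3, the reverse of SFRP1 and DKK1. DKK1 exons overlap PRKG1-AS1 on the other strand, and some counts of DKK3 were fractional.

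Of the 8 DKK and SFRP genes, 4 were tested and all 4 passed, against 63.5% of all tested genes. For 2 of the 4 the Vector level was below the filter's. SFRP5 was the fourth, with 0 and 104 counts, at least 34.5-fold higher in the LINC00665 libraries. DKK4 had 0 and 28 counts and DKK2 0 and 8, both too few to be tested, and SFRP2 and SFRP4 had 0 counts in all libraries. DKK3 alone made up 98.9 ± 0.965% (SD, n = 3) of the summed FPKM of these 8 genes in the Vector libraries. In the LINC00665 libraries its share was 57.0 ± 3.38%, beside 22.4 ± 3.53% for SFRP1 and 17.8 ± 0.486% for DKK1. The sums themselves were 81.3, 59.5 and 56.0 FPKM and 50.7, 45.5 and 51.2 FPKM, a ratio of 0.749 (two-sided exact permutation p = 0.1, the smallest possible).

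RNF43 and ZNRF3 are related ubiquitin ligases that remove Frizzled receptors from the cell surface, and both are known targets of beta-catenin. RNF43, on chromosome 17 at 58352500 to 58417595 on the minus strand, had 1 count in the Vector libraries (0.0466, 0 and 0 CPM) and stood at 36.2, 24.8 and 36.7 CPM in the LINC00665 libraries. The pooled ratio was 1920 (95% counting interval 344 to 75894), with an edgeR adjusted p of 7.6e-07; the single count was in Vector library 1, and without that library the Vector group was at 0. RNF43 exons overlap SUPT4H1 on the same strand and TSPOAP1-AS1 on the other, so single reads can be shared. ZNRF3 went the other way, from 19.9, 20.5 and 26.8 CPM to 13.5, 12.3 and 12.8 CPM (-0.80, SE 0.18, edgeR adjusted p = 0.0043). The groups did not overlap for either ligase.

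LGR4, a receptor for R-spondins, which counter these ligases, was at 68.3, 67.3 and 61.2 CPM in the Vector libraries and at 41.2, 39.8 and 45.2 CPM in the LINC00665 libraries, again with no overlap (log2 fold change -0.64, SE 0.14, edgeR adjusted p = 0.0034). LGR5, the stem cell marker of the gut, had 0 and 3 counts and no difference was detectable at this depth. R-spondin transcripts, from a list of other pathway genes, were near absent: RSPO1, RSPO2 and RSPO4 had 0 counts in all libraries and RSPO3 had 9 and 17. APCDD1, a membrane protein that inhibits WNT signalling, had 0 and 67 counts, at least 22.2-fold higher in the LINC00665 libraries.

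Inside the cell, AXIN1, the scaffold of the complex that degrades beta-catenin, did not pass. It was at 35.7, 41.9 and 51.5 CPM in the Vector libraries and at 42.9, 42.1 and 42.3 CPM in the LINC00665 libraries, which lay within the Vector range (log2 fold change -0.02, SE 0.17, edgeR adjusted p = 0.93). AXIN2, the scaffold's paralogue and a widely used readout of beta-catenin activity, was low at 0.653, 1.55 and 0.207 CPM and rose to 2.14, 4.36 and 3.55 CPM (2.06, SE 0.59, edgeR adjusted p = 0.015). The AXIN2 call was lost without Vector library 1 (edgeR adjusted p = 0.061) or LINC00665 library 2 (0.067), and without Vector library 2 its log2 fold change was 2.91. NKD1 and NKD2 are feedback inhibitors that bind Dishevelled. NKD1 stood at 1.76 ± 0.179 and 1.28 ± 0.462 CPM (SD, n = 3) and did not pass (edgeR adjusted p = 0.28), while NKD2 rose from 8 counts in all to 71 (log2 fold change 3.05, SE 0.59, edgeR adjusted p = 0.0021).

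All 4 TCF and LEF genes passed the test, against 63.5% of all tested genes, but TCF7L2 lost its call in 8 alternative fits. The order of the factors differed between the labels. TCF7, also called TCF1, was at 9.09, 12.5 and 4.4 CPM in the Vector libraries and at 47.3, 39.0 and 46.5 CPM in the LINC00665 libraries (log2 fold change 2.35, SE 0.34, edgeR adjusted p = 0.00042). TCF7L1, known mostly as a repressor, was at 8.25, 15.5 and 9.0 CPM and at 39.4, 33.5 and 41.6 CPM (1.81, SE 0.26, edgeR adjusted p = 0.00042). In both genes all LINC00665 libraries were more than 2 times as high as the highest Vector library. LEF1 was at 10.4, 15.2 and 15.1 CPM and fell to 8.42, 5.78 and 6.51 CPM (-0.97, SE 0.23, edgeR adjusted p = 0.0067). SKP1 overlaps TCF7 and LEF1-AS1 overlaps LEF1, each on the other strand.

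TCF7L2, the factor of gut epithelium, was at 19.6, 26.1 and 15.7 CPM and at 34.7, 30.3 and 28.2 CPM, close but not overlapping (log2 fold change 0.61, SE 0.21, edgeR adjusted p = 0.033). It no longer passed with total-count scaling (edgeR adjusted p = 0.087), on the FPKM scales (limma adjusted p = 0.068 and 0.07) or without any 1 library other than Vector library 2 (edgeR adjusted p = 0.061 to 0.12). Per length, the 4 factors summed to 18.9, 26.9 and 18.1 FPKM and to 43.4, 36.7 and 42.9 FPKM, 1.92-fold higher under the LINC00665 label (two-sided exact permutation p = 0.1, the smallest possible). LEF1 held 29.6 ± 6.65% (SD, n = 3) of the sum in the Vector and 7.15 ± 0.682% in the LINC00665 libraries, and TCF7 16.0 ± 3.92% and 36.9 ± 1.4%.

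**Figure D4:**
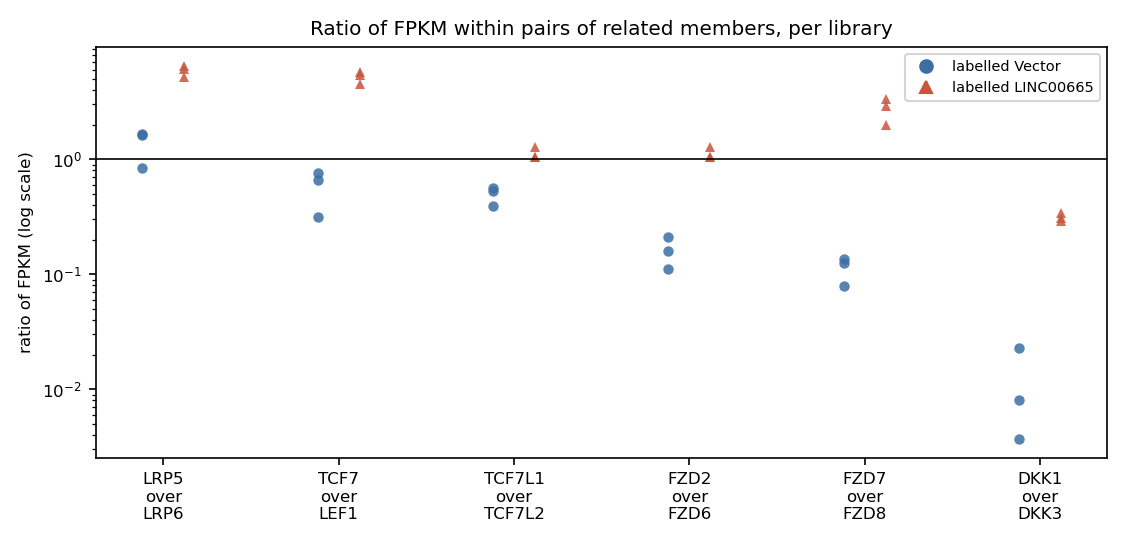
Ratio of FPKM between related members in each library, on a log axis with a line at 1; the pairs were chosen after their values were seen. The Vector (circles) and LINC00665 (triangles) libraries are apart in all 6 pairs, for example at 0.312 to 0.759 and 4.49 to 5.75 for TCF7 over LEF1.

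Ratios within such pairs do not depend on how libraries are scaled. TCF7 was 0.312 to 0.759 times LEF1 in FPKM in the Vector libraries and 4.49 to 5.75 times LEF1 in the LINC00665 libraries. FZD7 was 0.0797 to 0.137 times FZD8 under the Vector label and 2 to 3.36 times under the other, and FZD2 was 0.111 to 0.211 and 1.04 to 1.28 times FZD6. DKK1 stayed below DKK3 in every library, at 0.0037 to 0.0228 and 0.289 to 0.343 times its level.

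The other genes of the pathway were counted from lists. Of 31 genes of Dishevelled and the degradation complex, 30 were tested, 11 rose and 9 fell, with a median log2 fold change of 0.00. Those that passed were 66.7% of the tested genes of the list, near the 63.5% of all tested genes. The 4 with the smallest p were DACT1 (0.074 ± 0.128 and 24.7 ± 1.3 CPM, SD, n = 3), DACT2 (0 counts and 8.13 ± 0.895 CPM) and CXXC5 (1.35 ± 0.634 and 18.3 ± 2.84 CPM), which rose, and APC2 (3.86 ± 1.6 and 0.084 ± 0.0268 CPM), which fell. For 3 genes of the list, DACT1 and DACT2 among them, the Vector level was below the filter's, and for 2, APC2 among them, the LINC00665 level was, so their direction is tied to their having passed. The fitted log2 fold change of DACT1 was 8.37 and ranged to 11.94 without Vector library 2 and 7.76 without Vector library 1. DACT proteins and CXXC5 bind Dishevelled, and APC2 is the second APC gene. APC itself fell from 23.2 ± 2.77 to 10.6 ± 1.92 CPM. GSK3A (96.0 ± 19.5 and 111 ± 9.16 CPM) and CSNK1A1 (335 ± 21.7 and 287 ± 6.02 CPM) did not pass, although CSNK1A1 did with total-count scaling (edgeR adjusted p = 0.024). Among their related kinases in the list, GSK3B (mean 96.5 and 141 CPM), CSNK1E (152 and 351 CPM) and CSNK1G2 rose. CSNK1G1 and CSNK2A1 fell, and CSNK1D and CSNK1G3 did not pass.

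Of 26 genes of beta-catenin and its nuclear partners, 25 were tested, 9 rose and 9 fell. Those that passed were 72% of the tested genes of the list, against 63.5% of all tested genes. TLE1, a corepressor of TCF factors, rose from 26.1 ± 5.11 to 143 ± 11.1 CPM (SD, n = 3) and its relative TLE4 from 19.6 ± 0.988 to 47.4 ± 0.985 CPM. SMARCA4, a chromatin remodeller, rose from 90.4 ± 15.1 to 285 ± 1.79 CPM, and the coactivator EP300 fell from 290 ± 50.7 to 75.1 ± 13.0 CPM. CTNNB1, the beta-catenin gene, fell from 514 ± 119 to 324 ± 13.6 CPM (log2 fold change -0.67, SE 0.18, edgeR adjusted p = 0.012). Over the list the median was 0.11 on the log2 scale.

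Of 20 further receptors and planar polarity genes, 18 were tested, 6 rose and 6 fell (median log2 fold change 0.22). Those that passed were 66.7% of the tested genes of the list, near the 63.5% of all tested genes. VANGL2, a core planar polarity gene, went from 3 counts in all to 44.0 ± 4.88 CPM (SD, n = 3), while its relative VANGL1 fell from 108 ± 6.92 to 49.3 ± 5.92 CPM. FUZ, a gene of ciliogenesis, rose from 0.335 ± 0.239 to 15.4 ± 1.88 CPM, CELSR1 fell from 154 ± 5.89 to 60.7 ± 11.1 CPM, and GPC3, a glypican that binds WNT proteins, fell from 126 counts in all to 1. VANGL2 and FUZ lay below the filter's level in the Vector libraries and GPC3 in the LINC00665 libraries. Their log2 fold changes of 9.58, 5.53 and -6.53 became 10.48 and 6.24 without Vector library 2 and -8.42 without LINC00665 library 2, and VANGL2 was at 8.98 without Vector library 1. Of 19 genes of WNT secretion and other secreted modulators, 9 were tested, 7 rose and 2 fell (median 1.61). All 9 passed, against 63.5% of all tested genes. Of the 9, 4 lay below the filter's level in the Vector libraries, TRABD2A and DRAXIN among them, and 1 in the LINC00665 libraries. TRABD2A, a protease that inactivates WNT proteins, rose from 0.0728 ± 0.0853 to 9.69 ± 0.986 CPM and DRAXIN, a secreted antagonist, from 1 count in all to 211. Without Vector library 2 their log2 fold changes went from 7.02 to 8.29 and from 7.24 to 9.14, and TRABD2A was at 6.41 without Vector library 1. KREMEN1, a receptor for Dickkopf proteins, fell from 49.0 ± 10.1 to 18.9 ± 2.46 CPM.

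Of 30 genes known as WNT targets in some tissue, 23 were tested, 18 rose and 0 fell, with a median log2 fold change of 3.71. Those that passed were 78.3% of the tested genes of the list, against 63.5% of all tested genes. For 10 of the 23 the Vector level was below the filter's, so their direction is tied to it, and several are also targets of other pathways. Fitted only on genes with a mean of 1 CPM in both groups, 13 were tested and 8 passed, all higher. Of all genes in that fit 57.4% passed. SNAI2 (0.107 ± 0.0931 and 164 ± 12.1 CPM, SD, n = 3), BMP4 (0.434 ± 0.15 and 54.1 ± 8.4 CPM), FOSL1 (57.6 ± 11.9 and 1558 ± 103 CPM) and EPHB3 (0.308 ± 0.0268 and 22.7 ± 3.81 CPM) had the smallest p. Of these, all but FOSL1 lay below the filter's level in the Vector libraries. The log2 fold change of SNAI2, 10.56, was 9.94 without Vector library 1. CCND1, a target named in most accounts of the pathway, was at 484 ± 216 and 414 ± 2.37 CPM and did not pass (edgeR adjusted p = 0.51). Neither did CD44 (866 ± 83.5 and 971 ± 62.3 CPM) or SP5 (1.18 ± 0.527 and 2.25 ± 1.29 CPM). MYC, also on the list, rose from 119 ± 34.7 to 472 ± 41.4 CPM (log2 fold change 1.99, edgeR adjusted p = 9.4e-05). Shares called in the 5 lists ran from 66.7 to 100% of tested genes, against 63.5% of all tested genes.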

How the data were processed

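One deposited table holds, per the file headers, expected counts (not normalised) for 20289 genes, and FPKM values that the authors scaled by length and library size. The submitters' processing notes name HISAT2 2.0.4 and hg38 without saying what each was for. Counting tool, annotation and strand setting: not given in the sources used here, so reads of overlapping or antisense genes cannot be told apart with certainty. Coordinates and overlaps came from GENCODE v29 (GRCh38), matched by gene identifier for all 55 members, and promoters from RefSeq. Depth was 17289788 to 22725687 counts per library.

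After rounding, the expected counts were filtered (filterByExpr), normalised by TMM and tested across all 13552 remaining genes with edgeR 4.0.16 (quasi-likelihood, no covariate) in R 4.3.3, with Benjamini-Hochberg adjustment and a threshold of 0.05. CPM uses the same scaling. The ratio given beside a test is that of pooled CPM. A group at 0 was set at 3 counts over its libraries for a lower bound, and for 1 to 3 counts the ratio has an exact 95% binomial interval; both cover counting error only, since reads carry no molecular identifiers. The test was checked on simulated data with these 13552 genes, where it recovered 34% of 2-fold and 92% of 4-fold changes, and 5.97% of its calls were false. DESeq2 recovered 58% and 98% there, with 17.9% of its calls false, so it was less strict in that simulation. In the data themselves DESeq2 called 38 members, 28 higher and 10 lower, the same counts as edgeR. Whether the simulated shares of recovered changes and of false calls hold for the data, where 63.5% of all tested genes passed, was not tested. Library pairs of 1 label differed by more than sampling noise (chi-square per degree of freedom 10.2 to 121), so none was counted as a duplicate. Nothing states that the libraries came from separate cultures beyond the 3 experiments named, so p-values measure the spread between these libraries.

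Members, roles and lists were chosen with earlier results of these data known. Per-library values are given for members past the threshold with a mean of 5 CPM in a group and for those that did not pass with 5 CPM in both groups, and from each list the up to 4 tested genes with the smallest p. WLS, APC, GSK3A, CSNK1A1 and their related kinases, CTNNB1, VANGL1, CCND1, MYC, CD44, SP5, the R-spondins and lower members such as AXIN2 were named after their values were seen. Alternatives were size factors, total counts, other filters, DESeq2 1.42.0, limma 3.58.1 on log2(FPKM + 1) and log2(FPKM + 0.1), the replicate block, a threshold of 0.01 and leaving out each library.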

Additional observations from a re-analysis of the deposited data

How the results depend on the processing

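With only genes at a mean of 1 CPM in both groups, fewer genes were tested, and 24 members passed in place of 38, 4 ligands in place of 10, 2 DKK and SFRP genes in place of 4, 2 membrane regulators in place of 4 and 1 intracellular regulator in place of 3. In that fit all 4 tested genes of secretion and other secreted modulators passed, in place of 9 of 9. Of the WNT targets 8 of 13 tested passed, in place of 18 of 23, against 57.4% of all genes in that fit. The members' count was 32 at an adjusted p of 0.01, 35 to 41 under the other scalings, filters and tools, and 34 to 37 with 1 library left out. In none of these fits did a called member change direction. Total-count scaling moved the median log2 fold change of all genes from 0.03 to -0.13. For the 42 tested members, 544 of 573 values under alternatives kept direction and side of the threshold; the other 29 were lost calls of AXIN2 (2), FZD4 (2), FZD5 (10), TCF7L2 (8) and WNT9A (7). Fitted sizes of members near 0 under the Vector label were far smaller on the log2(FPKM + 1) scale, for example 2.82 in place of 10.45 for RNF43, since the pseudocount sets them.

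Replicate numbers are shared between the labels but did not pair the libraries: same-numbered libraries correlated in their deviations at 0.216, -0.16 and -0.198, and 1 of the 3 numbers matched its best partner. With the number as a replicate block, 37 members passed. Depth limits the 13 members that were not tested, of which 6 had at most 3 counts in each group.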
